A study of Mus musculus with 272 samples.

Results

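The Hippo pathway genes described here are Lats1, Lats2, Amot, Amotl2, Yap1, Wwtr1, Tead1, Tead2, Tead4 and Vgll4, taken by name from the deposited expression table. All 10 were present among its 15771 distinct gene symbols. They were measured in mouse oocytes and preimplantation embryos at 8 stages, namely germinal vesicle (GV) and metaphase II (MII) oocytes, zygotes, 2-cell, 4-cell and 8-cell embryos, morulae and blastocysts. At each stage 4 transcriptome libraries were made from pools of 20 oocytes or embryos, and 3 lysates of about 100 were spun through sucrose gradients and cut into 10 fractions (fraction 1 the lightest). Each fraction was sequenced on its own, which gave 32 transcriptome and 240 fraction libraries. All gradient lysates contained cycloheximide, which holds ribosomes on the mRNA. The strain, the age of the animals, and whether embryos developed in the animal or in culture are not given in the sources used here. Nor do the labels say whether replicates came from separate collections, so p-values measure the spread between these samples, which may be technical.

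Values are CPM, a gene's reads per M reads of its library. Transcriptome libraries held 11.2 to 24.3 M (mega) reads and fraction libraries 0.0102 to 43.2 M, and all 14 fraction libraries under 1 M were of fraction 1. Fractions of 2-cell, 4-cell and 8-cell embryos were uneven: in fractions 2 to 10, a gene that reached 100 CPM in both other gradients was at exactly 0 in the remaining one in 4.63%, 4.36% and 1.17% of cases, against 0.00506% to 0.0713% at the other 5 stages. The labelled stages were checked on marker genes. The summed level of 7 oocyte genes fell from between 16851 and 19957 CPM in GV oocytes to between 6.94 and 12.3 in blastocysts, and 5 trophectoderm genes reached 2084 to 2728 CPM in blastocysts. Of 10 genes of cumulus and granulosa cells, which can cling to oocytes, 3 were in the table, and they summed to 38.6 to 75.1 CPM in the oocyte libraries. Most of that sum was Cyp19a1, with means of 38.0 CPM in GV oocytes, 62.7 CPM in MII oocytes and 53.8 CPM in zygotes. From GV to MII oocytes the mean of Fshr went from 2.45 to 0.201 CPM and that of Kitl from 2.84 to 7.42 CPM.

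The Hippo pathway passes information on cell contact and polarity to the nucleus. The kinases Lats1 and Lats2, helped by angiomotins such as Amot and Amotl2 at cell junctions, phosphorylate the coactivators Yap1 and Wwtr1 (also called Taz) and keep them in the cytoplasm. Where the kinases are quiet, Yap1 and Wwtr1 enter the nucleus and work with Tead DNA-binding factors, while Vgll4 competes with them for Tead. In the mouse embryo this switch is known for separating outer trophectoderm cells, in which Tead4 drives Cdx2, from the inner cell mass.

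In the transcriptome libraries Yap1, Wwtr1 and Vgll4 were the most abundant members per kb of exon in GV oocytes, and most of the members rose between the 2-cell and the 4-cell stage. A change was called when limma on log2(CPM + 1) gave a Benjamini-Hochberg adjusted p under 0.05 over all 14642 genes tested and a difference of at least 1 (log2). From the 2-cell to the 4-cell stage 7 of the 10 members were called higher, against 31.8% of all genes, and 1, Yap1, was called lower, against 32.9%. The median of their 10 changes was 2.23, beside 0.02 over all genes, and stayed 2.23 with Amotl2 set at its lower bound.

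The other steps moved fewer members. From GV to MII oocytes 1 of 10 was called higher (9.11% of all genes) and 1 lower (25.3%), and from MII oocyte to zygote none was called (10.3% of all genes in either direction). From zygote to 2-cell embryo 2 were called higher (25.2%) and 1 lower (8.71%), while the median of all genes itself moved by 0.37. From the 4-cell to the 8-cell stage 1 was called higher (0.451%), from the 8-cell stage to morula 1 (8.18%) and from morula to blastocyst 2 (18.8%), with none lower. The plot of members by stage shows these steps beside the heavy gradient fractions described further on.

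**Figure D1:**
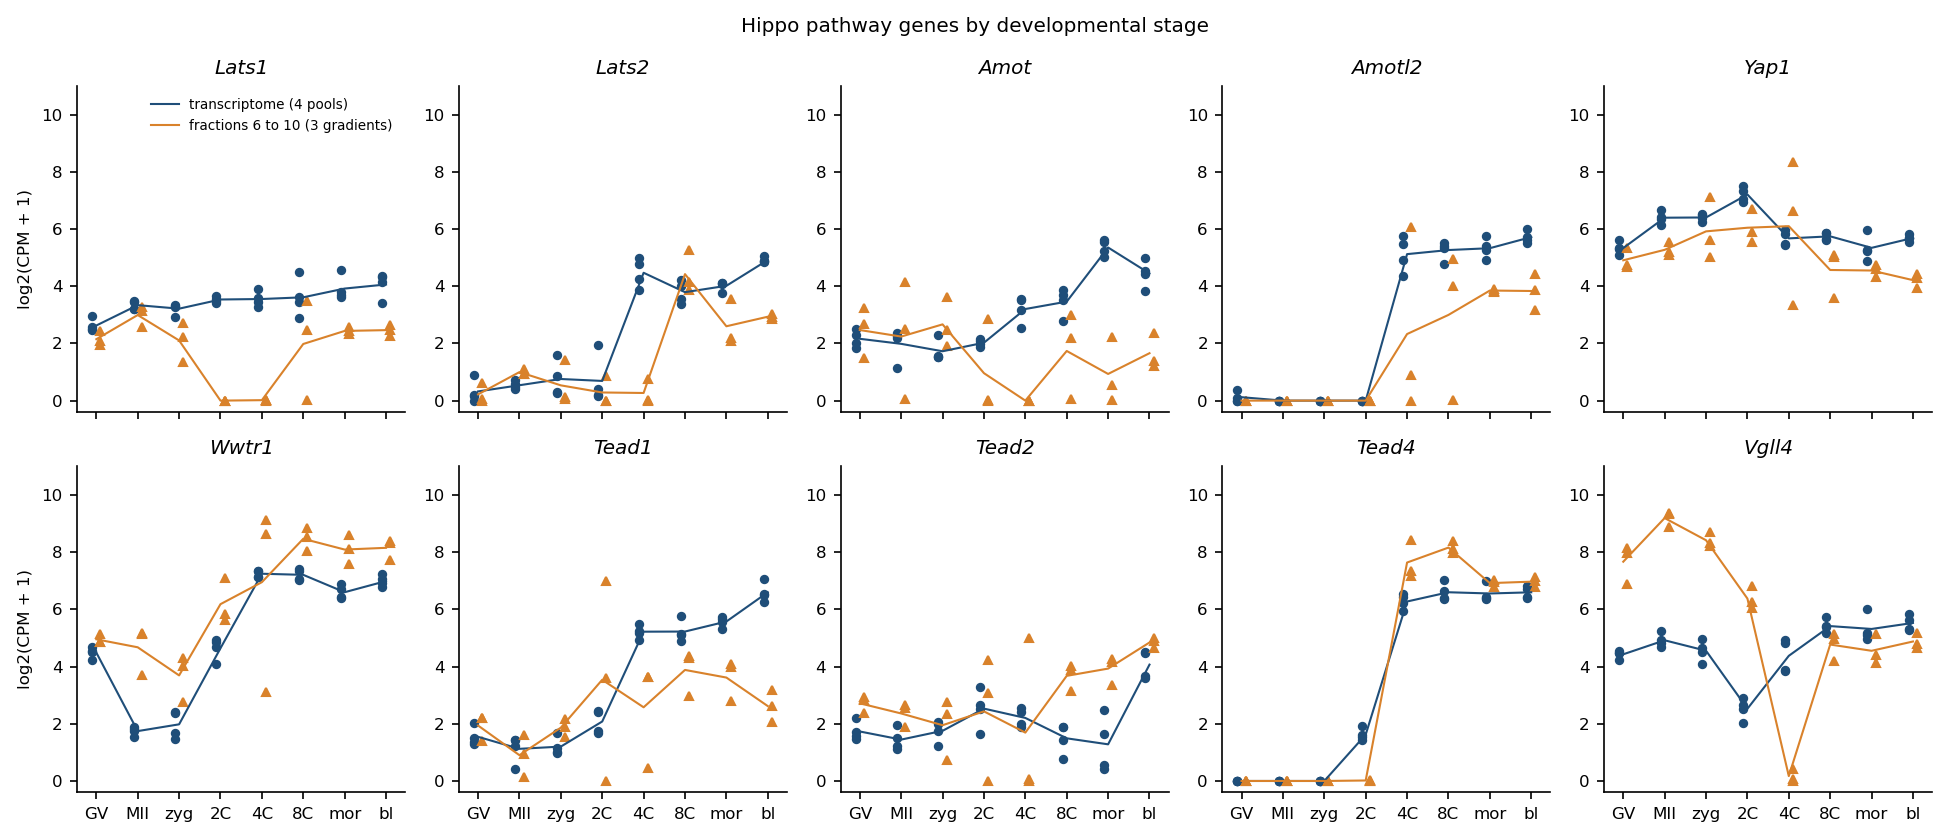
Level of each gene, as log2(CPM + 1), at the 8 stages (GV and MII oocyte, zygote, 2-cell, 4-cell, 8-cell, morula, blastocyst). Circles are the 4 transcriptome pools, triangles the 3 gradient means over fractions 6 to 10, and lines join the means. Tead4 and Amotl2 leave the baseline by the 4-cell stage, and the heavy-fraction line of Vgll4 drops to near 0 at that stage only.

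Lats1, one of the Lats kinases, was detected in every transcriptome library. Its 4 transcriptome values were 4.51, 4.71, 5.00 and 6.70 CPM in GV oocytes and 9.64, 16.9, 19.0 and 19.3 CPM in blastocysts. The blastocyst values lay above all GV values. No single step was called: the largest, from GV to MII oocytes, was 0.71 (log2, SE 0.25, limma adjusted p = 0.0149), under the limit of 1. With other scalings that step passed, at 1.37 after quantile normalization, 1.12 with edgeR and 1.25 with DESeq2.

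Lats2, the other Lats kinase, was at or below 2.87 CPM in every transcriptome library before the 4-cell stage. Its values were 0.128, 0.153, 0.338 and 2.87 CPM in 2-cell embryos and 13.5, 18.2, 26.2 and 30.9 CPM in 4-cell embryos, with no overlap. The rise was 3.78 (log2, SE 0.31, limma adjusted p = 2.02e-13). After the 4-cell stage no further step was called in the transcriptome, and blastocysts held 27.6, 28.3, 28.7 and 32.3 CPM.

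Amot and Amotl2, scaffold proteins of tight junctions and the actin cortex, rose at different steps. Amotl2 had 0 reads in every transcriptome library of MII oocytes, zygotes and 2-cell embryos, and at most 4 reads in GV oocytes. In 4-cell embryos it stood at 19.5, 29.2, 43.1 and 52.8 CPM. Against the level of 3 reads per 2-cell library, averaged over those libraries, it was at least 161-fold higher (limma adjusted p = 3.84e-21). It then stayed between 26.3 and 63.7 CPM through the blastocyst stage, and no later step was called.

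Amot was already present in oocytes, at 2.54, 3.09, 3.86 and 4.70 CPM in GV oocytes. Its values were 2.69, 2.91, 3.24 and 3.47 CPM in 2-cell embryos and 4.87, 8.00, 10.6 and 10.8 CPM in 4-cell embryos, a rise of 1.18 (log2, SE 0.28, limma adjusted p = 0.000224). That call ended with a pseudocount of 5, at 0.72. A second rise came between the 8-cell stage and the morula. The labels do not say which embryos had begun compaction, when cells flatten against each other and outer cells polarize. Amot went from 5.94, 10.4, 11.9 and 13.5 CPM in 8-cell embryos to 31.4, 36.8, 45.5 and 48.2 CPM in morulae, and the groups did not overlap. This change was 1.89 (log2, SE 0.28, limma adjusted p = 2.59e-06), the only member call at that step. Blastocysts, at 13.4, 20.3, 22.1 and 30.9 CPM, all lay below the morulae, but that step was not called by limma. With quantile normalization it was called at -1.33, with edgeR at -1.18, with DESeq2 at -1.13, without blastocyst library A at -1.09 and without morula library D at -1.02.

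Yap1 and Wwtr1, the paralogous coactivators, moved in opposite directions at both the GV to MII step and the 2-cell to 4-cell step. Yap1 rose during oocyte maturation, from 33.0, 38.4, 39.2 and 48.2 CPM in GV oocytes to 69.9, 80.5, 85.3 and 99.7 CPM in MII oocytes. The change was 1.06 (log2, SE 0.18, limma adjusted p = 2.95e-06). It fell under the limit of 1 with a pseudocount of 5 (0.99), without GV oocyte library D (0.98) or without MII oocyte library A (0.97). The libraries were of polyA RNA, so CPM does not separate transcript number from polyA tail length. The part of either at this step was not tested.

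Wwtr1 fell over the same step, from 17.9, 21.7, 22.1 and 24.5 CPM in GV oocytes to 1.88, 2.37, 2.48 and 2.73 CPM in MII oocytes. The change was -2.74 (log2, SE 0.19, limma adjusted p = 6.6e-15), and zygotes stayed low at 1.78 to 4.26 CPM. It came back in 2-cell embryos, at 16.2, 24.9, 27.8 and 29.5 CPM. That rise of 2.66 (log2, SE 0.19, limma adjusted p = 2.07e-14) compares with a median of 0.37 over all genes at this step.

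At the 2-cell to 4-cell step the levels of the coactivators crossed. Yap1 dropped from 122.8, 130.0, 161.2 and 180.2 CPM in 2-cell embryos to 42.7, 43.4, 55.0 and 61.3 CPM in 4-cell embryos, by 1.53 on the log2 scale (SE 0.18, limma adjusted p = 7.22e-10). Wwtr1 rose in the same libraries to 139.1, 140.4, 162.1 and 163.1 CPM, by 2.60 (log2, SE 0.19, limma adjusted p = 8.96e-15). Neither gene overlapped between the stages.

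Levels of different genes can be compared only per length of transcript, so CPM was divided by the length of all annotated exons, 9.257 kb for Yap1 and 4.779 kb for Wwtr1. On that scale the log2 ratio of Wwtr1 to Yap1 was 0.08 ± 0.24 in GV oocytes (SD, n = 4), with libraries on both sides of 0. It was -4.20 ± 0.20 in MII oocytes, -3.90 ± 0.67 in zygotes and -1.66 ± 0.25 in 2-cell embryos (SD, n = 4), so Yap1 was the higher one in all 12 libraries of those stages. The ratio was 2.55 ± 0.27 in 4-cell embryos and lay between 1.87 and 2.89 in all 16 libraries from the 4-cell stage to the blastocyst. Wwtr1 was the higher one in each of them. The gradient libraries differed from the transcriptomes before that stage. From the mean over all fractions the same ratio was 1.51 ± 0.10 in GV oocytes, 0.95 ± 0.45 in MII oocytes, -0.33 ± 0.56 in zygotes and 1.19 ± 1.35 in 2-cell embryos (SD, n = 3), with Wwtr1 the higher one in 3, 3, 1 and 2 of the 3 gradients. From the 4-cell stage on it lay between 2.03 and 5.02 in every gradient. The plot of levels per kb shows the crossing.

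**Figure D2:**
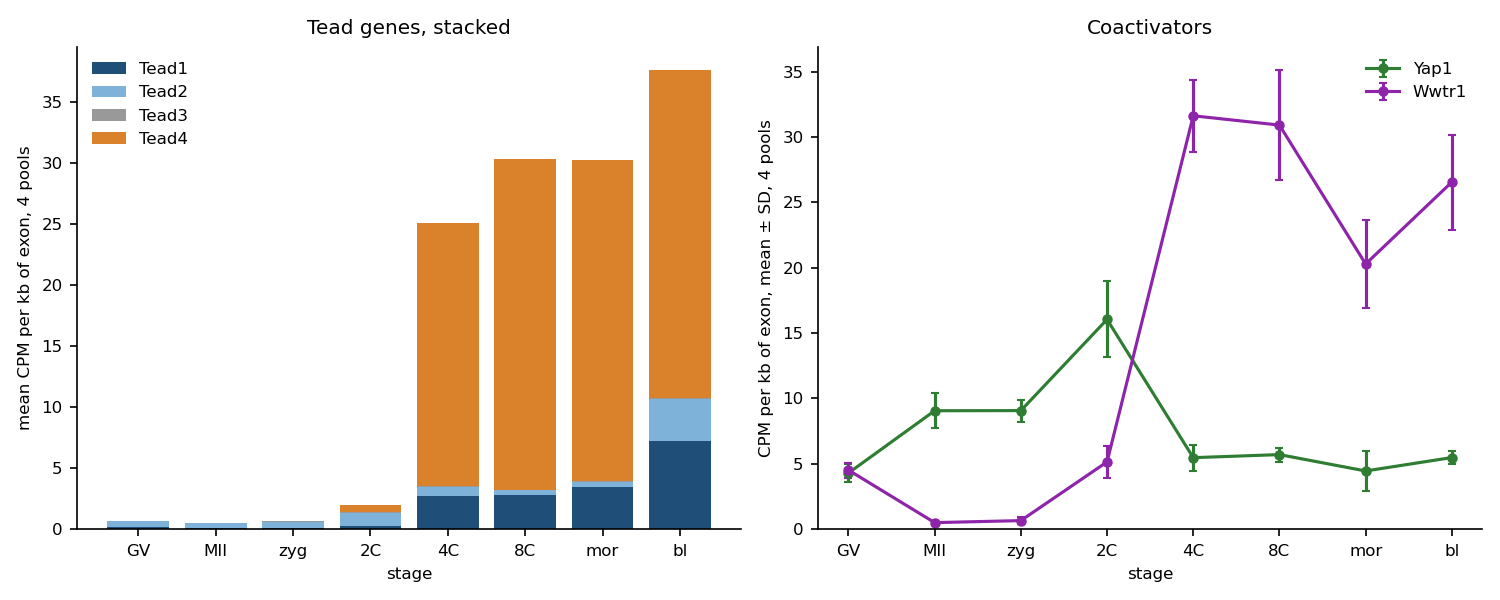
Transcriptome level per kb of exon at each stage. Left, stacked means over 4 pools of Tead1, Tead2, Tead3 and Tead4, with Tead4 making up most of the bar from the 4-cell stage on. Right, mean ± SD over 4 pools of Yap1 and Wwtr1, which cross between the 2-cell and the 4-cell stage.

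Tead4 is the Tead factor known for trophectoderm formation. It had 0 reads in all 12 transcriptome libraries of GV oocytes, MII oocytes and zygotes, and 1.69, 1.91, 2.03 and 2.76 CPM in 2-cell embryos. In gradients of GV oocytes, MII oocytes and zygotes, 1, 2 and 2 of 30 fraction libraries had Tead4 reads, at 2.57 CPM or less. The 2-cell transcriptome level is at least 13.3-fold above the level of 3 reads per zygote library (limma adjusted p = 1.28e-09). The fitted change fell from 1.62 to 0.50 with a pseudocount of 5, which ended the call at this low level. In 4-cell embryos Tead4 stood at 60.0, 73.2, 85.2 and 91.1 CPM, a further rise of 4.65 (log2, SE 0.18, limma adjusted p = 1.05e-22). It then stayed between 80.5 and 128.0 CPM, with no later call.

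Tead1, a broadly expressed paralog, rose at the same step without passing through 0. Its values were 2.21, 2.37, 4.37 and 4.48 CPM in 2-cell embryos and 29.8, 35.3, 37.1 and 44.3 CPM in 4-cell embryos. The change was 3.14 (log2, SE 0.24, limma adjusted p = 4.31e-14). The earlier change of Tead1 from zygote to 2-cell embryo, 0.88, lay under the limit and passed it with a pseudocount of 0.5 (1.05), edgeR (1.01), without 2-cell library H (1.01) and without zygote library C (1.03). From morulae, at 38.3, 46.7, 50.1 and 52.8 CPM, to blastocysts, at 76.0, 90.4, 92.8 and 132.1 CPM, Tead1 rose again by 1.02 (log2, SE 0.24, limma adjusted p = 0.000644). This second call sat at the limit. It ended with a pseudocount of 5 (0.96), quantile normalization (0.91), edgeR (0.79), DESeq2 (0.84), without blastocyst library D (0.87) and without morula library D (0.93).

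Tead2 followed another course and was called only at the last step. It ranged from 0.348 to 8.73 CPM in all transcriptome libraries before the blastocyst. Morulae held 0.348, 0.476, 2.13 and 4.61 CPM and blastocysts 11.2, 11.8, 21.1 and 21.9 CPM, a rise of 2.79 (log2, SE 0.35, limma adjusted p = 4.41e-08). All 5 measured trophectoderm markers were detected at this stage: their sum went from 124.8 to 171.3 CPM in morulae to between 2084 and 2728 CPM in blastocysts. The sum of 6 inner cell mass and primitive endoderm genes went from between 220.8 and 281.9 to between 381.2 and 459.5 CPM. Most of it was Gata6, with means of 166.7 and 194.9 CPM, and Nanog, with 47.5 and 151.3 CPM. Pou5f1 and Sox2 had higher means in blastocysts too. Gata4 went the other way, from 5.89 to 1.37 CPM, and Sox17 reached only 0.780 CPM. In whole-embryo pools, a change in the number of cells of a type and in the RNA per cell cannot be told apart, and the part of either in the rise of Tead2 was not tested.

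Per kb of exon, the sum of Tead1, Tead2, Tead3 and Tead4 rose from 1.99 ± 0.70 CPM per kb in 2-cell embryos to 25.0 ± 3.81 in 4-cell embryos (SD, n = 4). Tead2 gave 71.5% ± 14.3 of the sum in GV oocytes and 80.2% ± 11.8 in zygotes (SD, n = 4). The share of Tead4 was 31.1% ± 8.998 in 2-cell embryos and 85.6% ± 2.73 in 4-cell embryos (SD, n = 4). In blastocysts Tead4 still made up 71.2% ± 4.16, Tead1 19.5% ± 5.98 and Tead2 9.001% ± 2.32 (SD, n = 4). Tead3 was at most 0.6001% in each library from the 4-cell stage on.

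Vgll4, the Tead corepressor, was called in the transcriptome at 3 successive steps. Its transcriptome values were 15.9, 21.6, 24.4 and 30.4 CPM in zygotes, 3.09, 4.68, 5.36 and 6.43 CPM in 2-cell embryos and 13.5, 13.8, 27.6 and 29.2 CPM in 4-cell embryos. The 2-cell libraries were lower than all others on either side. The fall was -2.03 (log2, SE 0.24, limma adjusted p = 5.08e-09) and the return 1.85 (SE 0.24, limma adjusted p = 1.29e-08). In 8-cell embryos Vgll4 reached 34.9, 40.6, 41.3 and 51.6 CPM, a rise of 1.04 (log2, SE 0.24, limma adjusted p = 0.00522). That last call ended with a pseudocount of 5 (0.90), without 4-cell library A (0.87), without 4-cell library C (0.88) and without 8-cell library C (0.94).

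The promoters of Wwtr1, Amotl2, Yap1 and Vgll4 are shown because these 4 genes changed at the 2-cell to 4-cell step and hold the letters GGAATG, the core of the motif that Tead factors bind, on either strand. RefSeq promoter entries (GRCm38.p6, 250 bases upstream of the annotated start) were given for 8 of the 10 members, and the motif or its reverse complement CATTCC was found in 4 of them. Over all 32851 promoter windows of that length 12.6% held it, and counted per gene it was 14.4% of 27025 symbols. Capitals mark the motif. For Wwtr1, chr3:57575911-57576160 on the minus strand, and Vgll4, chr6:114969204-114969453 on the minus strand, the 250 bases before the start are given. For Yap1, chr9:8004720-8004749 on the minus strand, and Amotl2, chr9:102717727-102717756 on the plus strand, 30 bases around the motif are given, and those of Amotl2 lie in an annotated exon of GENCODE M21.
Wwtr1: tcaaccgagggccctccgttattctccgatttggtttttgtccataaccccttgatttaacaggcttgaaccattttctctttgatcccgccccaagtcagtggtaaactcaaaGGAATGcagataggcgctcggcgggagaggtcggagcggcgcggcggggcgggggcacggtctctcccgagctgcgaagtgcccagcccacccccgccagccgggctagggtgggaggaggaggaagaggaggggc
Vgll4: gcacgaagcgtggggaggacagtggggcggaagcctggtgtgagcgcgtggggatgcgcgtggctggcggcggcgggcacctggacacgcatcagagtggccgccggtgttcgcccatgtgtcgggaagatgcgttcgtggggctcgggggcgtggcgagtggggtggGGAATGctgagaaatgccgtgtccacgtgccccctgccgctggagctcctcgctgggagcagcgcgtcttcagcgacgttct
Yap1: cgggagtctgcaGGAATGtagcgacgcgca
Amotl2: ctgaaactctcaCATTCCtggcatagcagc
The first base of the motif lay 136 bases before the start of Wwtr1 in the entry shown and 170 in another. It lay 82 bases before the start of Vgll4, 141 before that of Yap1 and 65 before that of Amotl2. Of these genes, Wwtr1, Amotl2 and Vgll4 rose at the step and Yap1 fell, so the letters went with both directions. A match describes the sequence only, and binding was not measured.

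The gradient libraries address which mRNAs sediment with heavier particles, where polysomes (mRNAs with several ribosomes) are found. Fractions 6 to 10 are called heavy and fractions 1 to 5 light, and a gradient's level is its mean CPM over those fractions. CPM shows a gene's share within a fraction and not how much RNA the fraction held. Standard errors of the members' changes were 0.46 to 1.15 (log2) on the heavy side and 0.18 to 0.35 in the transcriptome, so a heavy-side change had to be larger to be called. None of the 10 members was called from GV to MII oocytes (4.06% of 14524 genes), from MII oocyte to zygote (1.49%) or from morula to blastocyst (0.0757%). From zygote to 2-cell embryo 2 were called lower (15.7%). From the 2-cell to the 4-cell stage 1 was called higher (15.6%) and 1 lower (22.3%), from the 4-cell to the 8-cell stage 2 higher (5.6%), and from the 8-cell stage to morula 1 lower (2.56%).

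**Figure D3:**
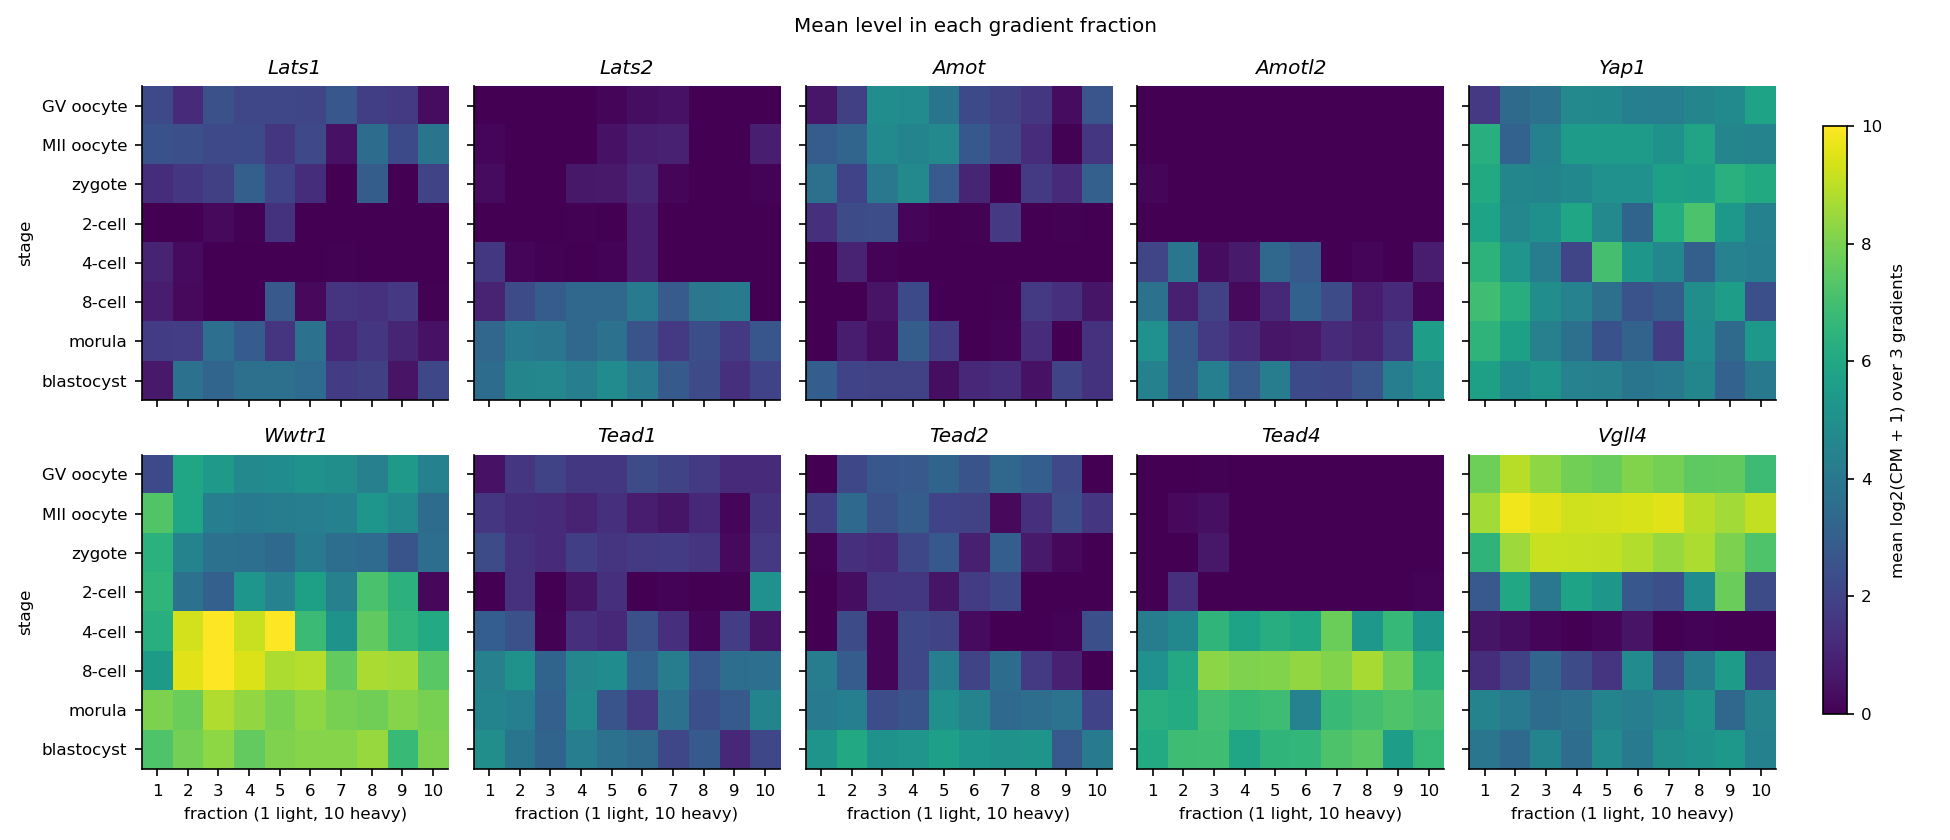
Mean log2(CPM + 1) over 3 gradients in each of the 10 fractions (columns, light to heavy) at the 8 stages (rows), on 1 colour scale from 0 to 10 (higher means take the top colour). Tead4 fills all fractions from the 4-cell stage on, Wwtr1 is brightest in light and middle fractions of 4-cell and 8-cell embryos, and the 4-cell row of Vgll4 is dark throughout.

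Tead4 had the largest heavy-side rise of the members. In 2-cell gradients its heavy means were 0, 0 and 0.0356 CPM, and in 4-cell gradients they were 141.3, 162.2 and 338.6 CPM. Against 3 reads per 2-cell library this was at least 824-fold higher (limma adjusted p = 2.02e-10). The 2-cell transcriptomes held 1.69 to 2.76 CPM of Tead4, while 2 of the 30 2-cell fraction libraries had any of its reads. The 8-cell gradients stood at 250.7, 274.2 and 336.8 CPM and morulae at 107.8, 123.0 and 129.8 CPM, a fall that did not pass the test across all stages. It passed when only those stages were fitted (-1.24, limma adjusted p = 0.0198) and with a pseudocount of 5 (-1.22, limma adjusted p = 0.0225).

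Vgll4 showed the largest heavy-side fall. Its heavy means were 297.8, 319.1 and 416.0 CPM in zygotes, 65.2, 76.3 and 111.1 CPM in 2-cell embryos, and 0, 0.0575 and 0.349 CPM in 4-cell embryos. No values overlapped between these stages. The zygote to 2-cell change was -2.04 (log2, SE 0.46, limma adjusted p = 0.00274), beside a median of -0.51 over all genes, and it did not pass with edgeR (adjusted p = 0.156) or DESeq2 (adjusted p = 0.0854). The 2-cell to 4-cell fall was at least 201-fold against 3 reads per library (limma adjusted p = 1.66e-09). In 8-cell gradients Vgll4 was back at 17.5, 30.0 and 34.4 CPM, at least 65.2-fold higher (limma adjusted p = 2.31e-06). Fitted on those stages alone, the return had an adjusted p of 0.161 by limma, but in that fit no tested gene was called.

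From GV to MII oocytes Vgll4 went from 117.7, 247.7 and 282.9 to 471.3, 641.0 and 659.3 CPM on the heavy side, with no overlap, at 1.53 (log2, SE 0.46, limma adjusted p = 0.064). It passed with a pseudocount of 5 (limma adjusted p = 0.015), with no filter (limma adjusted p = 0.0339), fitted on those stages alone (limma adjusted p = 0.00484) and with DESeq2 (adjusted p = 0.0323).

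The level of Vgll4 also differed between kinds of library. In MII oocytes the 4 transcriptomes held 24.6 to 36.8 CPM, while its mean over the 10 fractions of the 3 gradients was 628.7 CPM. On the log2(CPM + 1) scale that is 4.36 higher in fractions, and 3.71% of 12164 genes had a difference as high. In GV oocytes the difference was 3.64 and in zygotes 4.06, reached by 2.16% and 5.64% of genes. In 4-cell embryos the sign turned: the transcriptomes held 13.5 to 29.2 CPM, but only 8 of the 30 fraction libraries had any read, none above 2.35 CPM. That difference was -4.19, and 1.71% of 12658 genes were as low. The profiles of Vgll4 along the gradients show this.

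**Figure D4:**
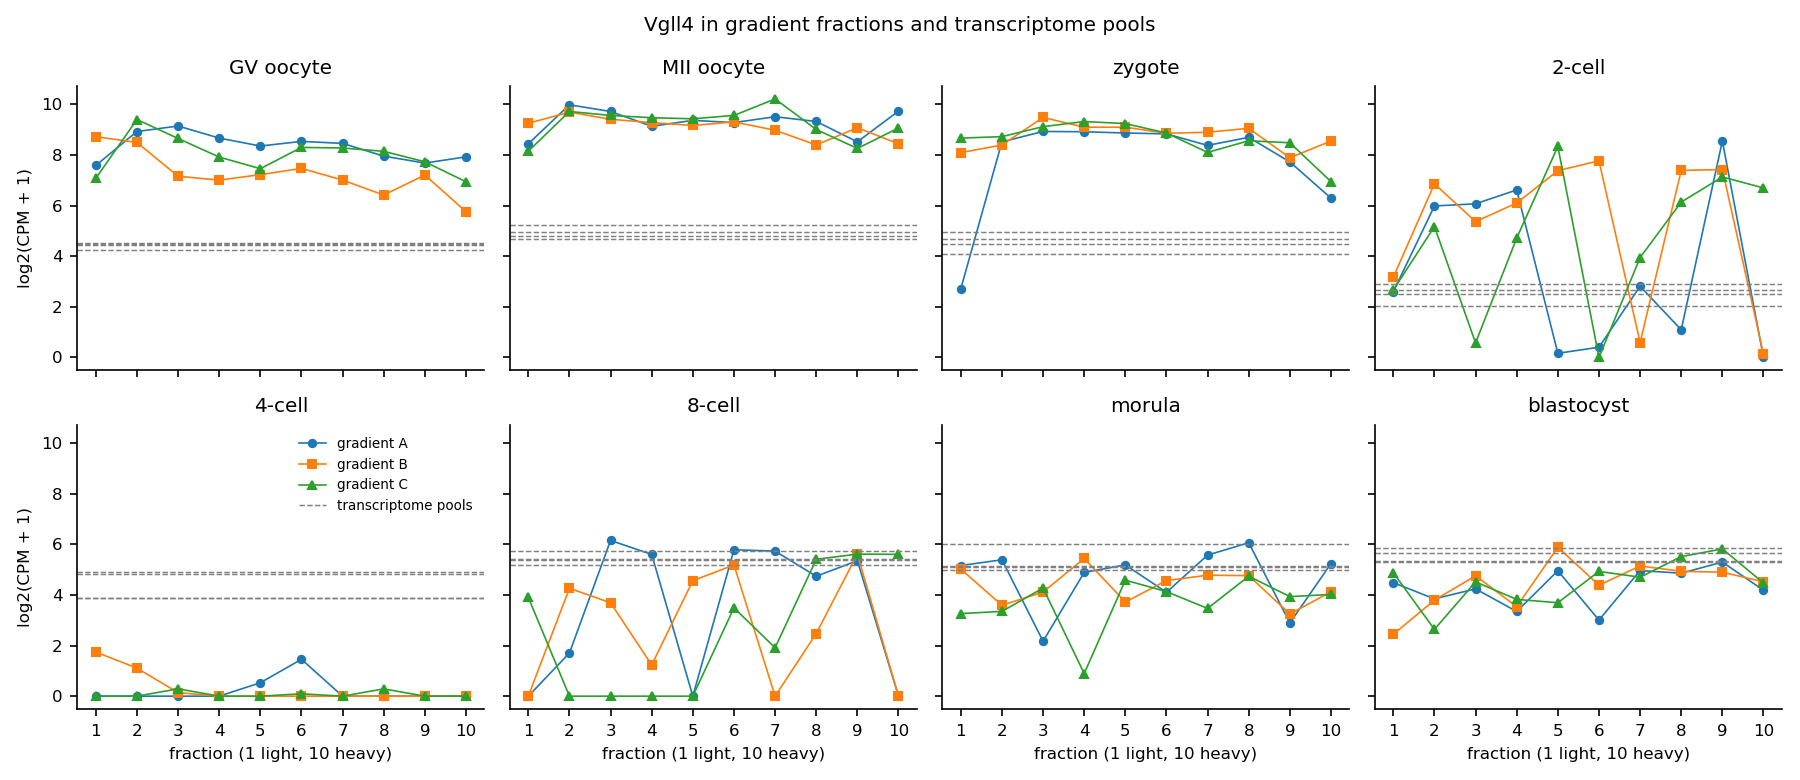
Vgll4 in each fraction of the 3 gradients (coloured lines) and in the 4 transcriptome pools (dashed lines), as log2(CPM + 1), at the 8 stages. The fractions lie above all 4 transcriptomes in 30 of 30 libraries of GV and of MII oocytes and 29 of 30 of zygotes, in 19 of 30 of 2-cell embryos, and lie at most at 2.35 CPM in 4-cell embryos.

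Lats1, Lats2 and Amot shared the gap in 4-cell gradients. Lats1 stood at 8.57 to 14.0 CPM in 4-cell transcriptomes, but at 0, 0.0137 and 0.0195 CPM in heavy fractions. Amot had 0 reads in all 15 heavy 4-cell libraries, with 4.87 to 10.8 CPM in the transcriptomes. Lats2 had heavy means of 0, 0.0267 and 0.697 CPM, with 13.5 to 30.9 CPM in the transcriptomes. With Vgll4, these were all 4 members whose 4-cell transcriptome mean lay between 5 and 30 CPM, and all 4 had a heavy mean under 1 CPM. Of the 3999 genes in that range, 24.6% did. At the 2-cell stage 1 of 3 such members did, Lats1, against 19.3% of genes, and at the 8-cell stage 0 of 3, against 9.86%. The range was not set in advance, so this contrast is a description. Just outside it, Tead2 (3.70 CPM), Amotl2 (36.2 CPM) and Tead1 (36.6 CPM) had heavy means of 10.4, 22.6 and 7.76 CPM, uneven between gradients. The uneven 4-cell fraction libraries move with the gap of Lats1, Lats2, Amot and Vgll4, and their part in it was not tested.

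Lats1 and Lats2 also changed on the heavy side. Lats1 had heavy means of 1.56, 3.71 and 5.59 CPM in zygotes and 0 in all 3 gradients of 2-cell embryos. Against 3 reads per 2-cell library this was at least 13.9-fold lower (limma adjusted p = 0.0175). That call ended with a pseudocount of 5 (-0.76), quantile normalization (adjusted p = 0.0948 by limma), without zygote gradient A (adjusted p = 0.0826) and without zygote gradient C (adjusted p = 0.0523). The 2-cell transcriptomes held 9.69 to 11.7 CPM of Lats1. The 2-cell fractions were uneven too (4.63% of cases at 0), and their part in this fall was not tested. Lats2 rose from the 4-cell values above to 13.7, 16.5 and 37.3 CPM in 8-cell gradients, by 4.16 (log2, SE 0.51, limma adjusted p = 2.91e-05). With edgeR the adjusted p was 0.0602, and fitted on those stages alone, where no tested gene was called, 0.161 by limma. In morulae Lats2 was at 3.19, 3.57 and 10.6 CPM, lower by -1.82 (log2, SE 0.51, limma adjusted p = 0.0273). This fall missed the threshold under 8 alternatives, among them DESeq2 (adjusted p = 0.61), without 8-cell gradient C (limma adjusted p = 0.13), without morula gradient A (limma adjusted p = 0.115) and without morula gradient B (limma adjusted p = 0.12).

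The coactivators were abundant on the heavy side but uneven between 4-cell gradients. Yap1 had heavy means of 45.9, 58.7 and 101.7 CPM in 2-cell embryos and 9.04, 97.6 and 324.8 CPM in 4-cell embryos, where 1 library, fraction 6 of gradient A, stood at 1523 CPM. The groups overlapped, and the change of 0.05 (log2, SE 0.85) had a limma adjusted p of 1. Wwtr1 stood at 48.2, 55.6 and 136.5 CPM in 2-cell and 7.61, 392.8 and 557.3 CPM in 4-cell embryos, a change of 0.77 (log2, SE 0.99, limma adjusted p = 0.608). Without 4-cell gradient A it was 2.69 (limma adjusted p = 0.000572), and with edgeR 2.09 (adjusted p = 0.0447). From zygotes, at 5.73, 15.3 and 18.6 CPM, to 2-cell embryos Wwtr1 did not overlap, with a change of 2.49 (log2, SE 0.99, limma adjusted p = 0.0815). It passed after quantile normalization (limma adjusted p = 0.0047), with edgeR (adjusted p = 0.0206) and with DESeq2 (adjusted p = 0.000189).

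A direct test asked whether the heavy-side change between stages differed from the transcriptome change. Its fit used a shared spread per gene for both kinds of library, although heavy means varied more. Standard errors of these differences can therefore be too small, and their adjusted p too low. From the 2-cell to the 4-cell stage 1 of 10 members changed more on the heavy side (13.8% of 15165 genes) and 4 changed less or fell there (18%). Tead4 was the first kind, with a difference of 2.97 (log2, SE 0.37, limma adjusted p = 1.9e-08). The other four were Vgll4 at -8.06 (SE 0.46, limma adjusted p = 1.29e-17), Tead1 at -4.10 (SE 1.04, limma adjusted p = 0.00187), Lats2 at -3.80 (SE 0.56, limma adjusted p = 8.66e-07) and Amotl2 at -2.79 (SE 1.02, limma adjusted p = 0.0306). Light fractions were not part of this test. Their mean levels in 2-cell and 4-cell gradients were 1.04 and 152.1 CPM for Tead4, and 67.7 and 0.285 CPM for Vgll4. They were 1.62 and 5.24 CPM for Tead1, 0.0091 and 1.92 CPM for Lats2, and 0 and 11.1 CPM for Amotl2. Whether a difference belongs to the heavy fractions or to the gradient libraries as a whole was not tested. The differences of Vgll4, Lats2 and Tead4 kept sign and call in each of their 23 alternatives. That of Tead1 missed the threshold only when fitted on those stages alone (adjusted p = 0.148 by limma). That of Amotl2 was lost in 8 of 23, among them without 4-cell gradient A (-1.63, limma adjusted p = 0.202) or B (-2.08, limma adjusted p = 0.122) and without 4-cell transcriptome A (limma adjusted p = 0.0508) or C (limma adjusted p = 0.0588), and with edgeR it turned to 0.16.

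**Figure D5:**
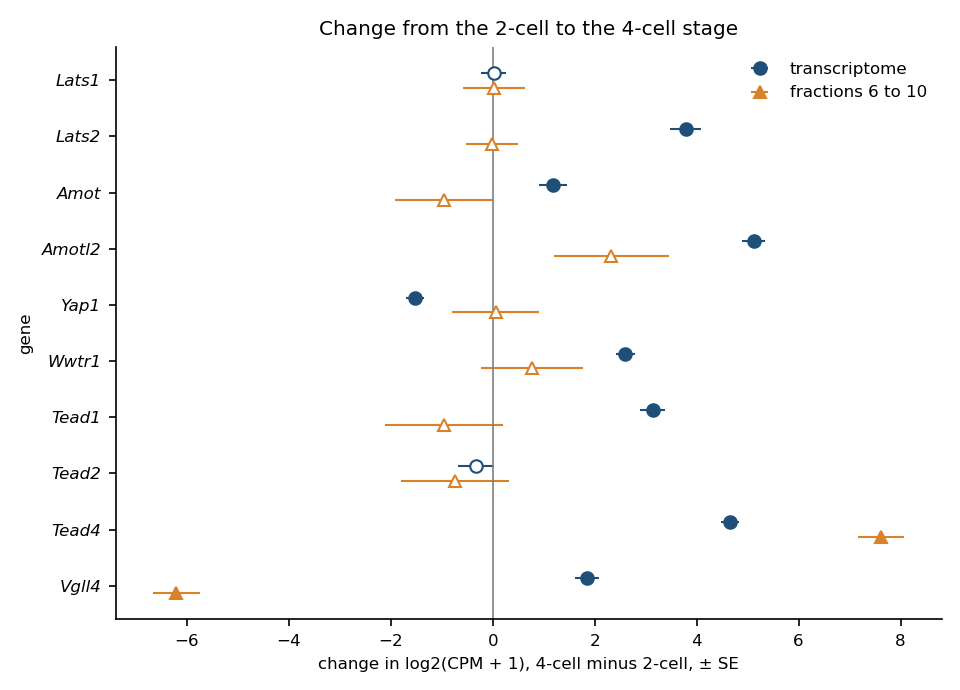
Change in log2(CPM + 1) from the 2-cell to the 4-cell stage, as 4-cell minus 2-cell ± SE, in transcriptomes (circles) and in fractions 6 to 10 (triangles) for each gene. Filled symbols passed the test. The transcriptome changes of 8 genes are filled against 2 on the heavy side, and for Vgll4 they lie on opposite sides of 0.

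For Yap1 the heavy change exceeded the transcriptome change by 1.59 (log2, SE 0.74, limma adjusted p = 0.0956), and for Wwtr1 it fell short, at -1.83 (SE 0.89, limma adjusted p = 0.111). Without 4-cell gradient B both passed, Yap1 at 2.98 (limma adjusted p = 2.82e-05) and Wwtr1 at -2.67 (limma adjusted p = 0.0173). Quantile normalization (limma adjusted p = 0.00726) and edgeR (adjusted p = 0.0126) also gave a call for Yap1, and leaving out 4-cell gradient C (limma adjusted p = 0.00542) for Wwtr1.

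Tead1 and Amotl2 were scattered on the heavy side. Tead1 had 0, 11.2 and 127.2 CPM in 2-cell gradients, and the highest value came from 1 library, fraction 10 of gradient B, at 635.9 CPM. Amotl2 had 0, 0.861 and 67.0 CPM in 4-cell gradients, beside 19.5 to 52.8 CPM in the transcriptomes. Its heavy-side rise from 0 in 2-cell gradients was 2.33 (log2, SE 1.13, limma adjusted p = 0.118). It passed after quantile normalization (limma adjusted p = 0.0246), with edgeR (adjusted p = 0.012), with DESeq2 (adjusted p = 2.78e-29) and without 4-cell gradient A (limma adjusted p = 0.0213).

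At the other steps the same test called fewer or no members. From zygote to 2-cell embryo 2 of 10 were lower than their transcriptome change (26% of genes), Lats1 at -2.42 (SE 0.60, limma adjusted p = 0.00174) and Tead4 at -1.60 (SE 0.37, limma adjusted p = 0.000786), where the median of all genes was -0.89. After quantile normalization, which moved that median to 0.04, Lats1 stood at -1.23 (limma adjusted p = 0.131) and Tead4 at -0.40 (limma adjusted p = 0.506). A pseudocount of 5 also ended both calls, with Lats1 at -0.99 and Tead4 at -0.50, and edgeR that of Tead4 (adjusted p = 1). From the 4-cell to the 8-cell stage 3 were higher (12%), namely Lats2 at 4.83 (SE 0.56, limma adjusted p = 2.53e-08), Vgll4 at 3.56 (SE 0.46, limma adjusted p = 2.43e-07) and Lats1 at 1.90 (SE 0.60, limma adjusted p = 0.0257). The values of Lats2 and Vgll4 held under all 23 alternatives each, and that of Lats1 was lost in 7, among them without 8-cell gradient B (1.16, limma adjusted p = 0.186) or C (limma adjusted p = 0.071) and without 4-cell transcriptome A (limma adjusted p = 0.0512) or 8-cell transcriptome D (limma adjusted p = 0.0676).

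From the 8-cell stage to morula 2 were lower (2.48%), Lats2 at -2.05 (SE 0.56, limma adjusted p = 0.018) and Tead4 at -1.20 (SE 0.37, limma adjusted p = 0.0364). The call of Lats2 was lost in 7 of 23 alternatives and that of Tead4 in 10, with adjusted p up to 0.65 and 0.262, both by edgeR. Leaving out 8-cell gradient C (limma adjusted p = 0.0843 for Lats2 and 0.0862 for Tead4) or morula gradient A (limma adjusted p = 0.0672 and 0.0806) ended both calls. Morula gradient B did so for Lats2 (limma adjusted p = 0.0624). For Tead4 the same held for morula gradient C (limma adjusted p = 0.0558), morula transcriptome A (0.0945) and 8-cell transcriptomes B (0.0768) and D (0.0745). No member was called from GV to MII oocytes (8.22%), from MII oocyte to zygote (2.28%) or from morula to blastocyst (2.2%). Wwtr1 fell by 2.74 in the transcriptome from GV to MII oocytes, while its heavy means were 28.0, 28.4 and 33.9 CPM in GV and 12.1, 34.4 and 34.7 CPM in MII oocytes. The difference between these changes, 2.46 (log2, SE 0.89), had a limma adjusted p of 0.0839 over all stages. It passed when only those stages were fitted (limma adjusted p = 0.000577), with quantile normalization (limma adjusted p = 0.0257), with edgeR (adjusted p = 0.0119) and without MII gradient B (limma adjusted p = 0.0403).

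Within a stage, heavy and light fractions were compared for each member. Only Wwtr1 in 4-cell embryos was called, 1 of 10 members lower on the heavy side against 12.9% of 15172 genes. Its heavy means in gradients A, B and C were 7.61, 392.8 and 557.3 CPM and its light means 908.0, 863.7 and 1143 CPM, so every light value lay above every heavy one. The difference was -2.96 (log2, SE 0.78, limma adjusted p = 0.00647). Gradient A carried much of it: without it the difference was -1.09 (limma adjusted p = 0.206). It also missed the threshold with edgeR (adjusted p = 0.0649), with fractions 1 and 2 as the light side (limma adjusted p = 0.203) and fitted on that stage alone (limma adjusted p = 0.362). In the fit on that stage alone no tested gene was called.

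Lats2 in blastocysts had heavy means of 6.25, 6.60 and 7.09 CPM and light means of 17.4, 18.3 and 30.1 CPM, with no overlap. The difference of -1.54 (log2, SE 0.53) had a limma adjusted p of 0.146. It passed with a pseudocount of 5 (limma adjusted p = 0.0144), fitted on that stage alone (limma adjusted p = 0.00863), with fractions 7 to 10 as heavy (limma adjusted p = 0.00552) and with fractions 2 to 5 as light (limma adjusted p = 0.0417), the last chosen after seeing the data.

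With the gradient as a block, since both sides come from one lysate, 3 differences were called: that of Wwtr1, Tead1 in 2-cell embryos, higher on the heavy side by 2.27 (limma adjusted p = 0.0421), and Vgll4 in 8-cell embryos, higher there by 1.39 (limma adjusted p = 0.0421). Of all 15172 genes, the block fit called 2145 lower on the heavy side in 4-cell embryos. It called 1112 higher there in 2-cell embryos and 473 in 8-cell embryos. No member was called at the other stages without the block, where the shares of all genes called were 0.0725% in GV oocytes, 3.23% in MII oocytes, 3.01% in zygotes, 18.2% in 2-cell embryos, 9.05% in 8-cell embryos, 5.81% in morulae and 2.74% in blastocysts.

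The position of a gene along the gradient was described by the mean fraction number weighted by CPM, with no test, since 3 against 3 gradients cannot reach an exact p under 0.1. Tead4 was placed evenly, at 5.82 ± 0.42 in 4-cell embryos, 5.84 ± 0.49 in 8-cell embryos, 5.86 ± 0.17 in morulae and 5.80 ± 0.30 in blastocysts (SD, n = 3). In blastocysts, where all 10 members had reads, Tead1 was the lightest at 3.74 ± 0.29 and Vgll4 the heaviest at 6.19 ± 0.18 (SD, n = 3). Lats2, at 4.21 ± 0.26, was also on the light side there, and Tead2 at 4.66 ± 0.22, while Wwtr1 was at 5.74 ± 0.44. The gradients of Tead1 lay between 3.41 and 3.93 and those of Vgll4 between 6.04 and 6.38, with no overlap. Yap1 was at 6.71 ± 0.74 in GV oocytes and 4.32 ± 0.72 in blastocysts (SD, n = 3).

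Tead1 in blastocysts also had the largest gap of the Tead genes between library kinds. It stood at 76.0 to 132.1 CPM in the transcriptomes and at a mean of 11.8 CPM over all fractions, a difference of -2.95 on the log2(CPM + 1) scale, and 4.59% of 12147 genes were as low. Amot in morulae was at 31.4 to 48.2 CPM in the transcriptomes and at 3.09 CPM over all fractions, a difference of -3.34 that 2.72% of 12442 genes reached. Its heavy means were 0.00913, 0.473 and 3.68 CPM in morulae, and 0.0352, 3.51 and 6.92 CPM in 8-cell embryos, a change of -0.80 (log2, SE 0.96, limma adjusted p = 0.763). The difference between the heavy and the transcriptome change, -2.70 (log2, SE 0.90), had a limma adjusted p of 0.0621. With quantile normalization (limma adjusted p = 0.0207), with a pseudocount of 5 (limma adjusted p = 0.00415) and without the library of 2-cell fraction 7, gradient B (limma adjusted p = 0.0367), it passed. Without 8-cell gradient A (limma adjusted p = 0.0088) or morula gradient C (limma adjusted p = 0.0226) it passed too.

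Other genes of the pathway, 39 by a list of kinases, upstream inputs, polarity genes, Tead partners and targets, give the setting. Of these 35 were in the table and 34 were tested in the transcriptome, and Fat4, Dchs1, Ankrd1 and Axl were not analysed here. From the 2-cell to the 4-cell stage 8 were called higher and 13 lower, against 31.8% and 32.9% of all genes, and the median of the 34 changes was -0.15. From morula to blastocyst 14 were called higher (18.8% of all genes) and 3 lower (7.97%), and from the 8-cell stage to morula 11 higher (8.18%) and 0 lower.

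Among the core kinases and partners, 2 of 5 rose and 1 fell at the 2-cell to 4-cell step, beside 31.8% and 32.9% of all genes. Stk3, which encodes the Mst2 kinase upstream of Lats, fell from a mean of 69.3 to 2.52 CPM, by 4.32 on the log2 scale (SE 0.19, limma adjusted p = 3.53e-21). Stk4, its paralog Mst1, rose from 20.1 to 54.8 CPM (1.43, SE 0.18, limma adjusted p = 7.78e-09). Mob1a, a cofactor of Lats, had risen one step earlier, from 11.5 CPM in zygotes to 35.6 CPM in 2-cell embryos (1.58, SE 0.21, limma adjusted p = 5.98e-08).

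Of the 11 tested upstream inputs, 2 rose and 4 fell at the 2-cell to 4-cell step, beside 31.8% and 32.9% of all genes. Fat1, an atypical cadherin, fell from 43.4 to 5.09 CPM, Wwc2, a Kibra paralog, from 197.6 to 42.2 CPM, and Frmd6, a FERM domain protein, rose from 3.72 to 19.0 CPM.

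Ajuba, which restrains Lats kinases, rose from a mean of 0.101 CPM in zygotes to 8.05 CPM in 2-cell embryos (3.04, SE 0.27, limma adjusted p = 4.25e-12). Its relative Limd1 was called at 3 steps: it rose from 9.75 to 22.0 CPM between GV and MII oocytes, fell from 18.0 CPM in 2-cell to 3.53 in 4-cell embryos, and rose from 3.06 CPM in morulae to 15.1 in blastocysts. Wtip, the third of the family, rose from 2.17 CPM in 8-cell embryos to 8.17 in morulae. Vgll1, a Tead cofactor, fell from 11.3 CPM in 2-cell embryos to 0 reads in all 4 libraries of 4-cell embryos (limma adjusted p = 1.39e-15). Vgll3 rose from 2.35 CPM in morulae to 11.2 in blastocysts, and Vgll2 passed the test once, from 0.320 to 1.85 CPM between GV and MII oocytes.

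All 5 measured targets of Yap and Tead were called higher from morula to blastocyst, where 18.8% of all genes were. Cdx2, the trophectoderm regulator, rose from 8.58 to 92.5 CPM (3.38, SE 0.31, limma adjusted p = 3.62e-11). Sox2, which marks inner cells and is held down by Yap1 and Tead4 in outer cells, rose from 0.192 to 18.6 CPM (4.03, SE 0.23, limma adjusted p = 2.75e-16), so the list joins genes known for opposite responses. Gata3, a second trophectoderm regulator, was present before: its mean fell from 37.9 CPM in 2-cell embryos to 2.71 CPM in 4-cell embryos and reached 155.7 CPM in blastocysts. The trophectoderm and inner cell marker sums given with Tead2 moved with this group too, and Cdx2, Gata3 and Sox2 are themselves among those markers.

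For 4 members the 3 genes most like them were sought, by Pearson's r over 8 stage means of log2(CPM + 1) in the transcriptome, among 10769 genes with a stage mean of at least 10 CPM. Nearest to Yap1 were Siva1 (0.97), Rnf19a (0.97) and Zranb1 (0.97). Tead4 was most like Slc46a1, Wdr4 and Fbl (1.00 each after rounding), which also rose from the 2-cell to the 4-cell stage and stayed high. Lats2 had Ripor1, Trib1 and Irgq (1.00 each after rounding), and Amot had Bex4, Lrrc23 and Zfyve1 (0.98 each), all highest in morulae. With 8 points and 1 dominant step such values are a description.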

How the data were processed

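The deposited table held CPM (reads of a gene scaled to the library total by the authors) for 272 libraries. Columns treated as signal in the deposited table numbered 9. They are scaled like the others, but repeated symbols push their sums above the total that CPM allows. The submitters' processing notes name Trim Galore 0.6.7, FastQC, HISAT2 2.2.1, featureCounts 2.0.1, edgeR and the genome build GRCm39, with no role given. Libraries were polyA RNA amplified with a Smart-seq protocol, per the labels' protocols. Amplification without molecular identifiers means that reads are not independent molecules, so floors cover counting error only.

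Of 15854 symbols, 159 appeared more than once with identical values, and 15771 symbols were kept. Whole reads were recovered from the CPM steps (within 0.05 reads) in 271 libraries. The other library, fraction 7 of 2-cell gradient B, stayed out of count models. Columns were matched to samples by name. Because the letters of the 2-cell transcriptome columns (E to H) differ from those in the labels, these columns were matched to the stage only.

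Consecutive stages were compared with limma 3.58.1 (R 4.3.3) on log2(CPM + 1), with mean-variance trend, all stages in the fit, genes at 1 CPM or more in a number of samples equal to the smallest group, and Benjamini-Hochberg adjustment over all genes tested. Heavy means over fractions 6 to 10 and light means over fractions 1 to 5 were taken per gradient. A floor is 3 reads per library. The fits were checked on simulated data. There, heavy-side changes from the 2-cell to the 4-cell stage were recovered less often than transcriptome changes of the same size. Alternatives were other pseudocounts (0.5 and 5), no filter, only the groups compared, quantile normalization, CPM without ribosomal RNA, edgeR 4.0.16 and DESeq2 1.42.0 on recovered reads, other fraction limits, and each replicate left out. Heavy and light sides of a gradient share a lysate and are paired by it, with deviations correlated at 0.01 to 0.25 over 24 pairs. The members and gene lists were chosen with earlier results of these data known. Among pathway genes, those named were up to 3 with the largest called change in each group, and 1 group is not reported here. Exon lengths are from GENCODE M21 and promoters from RefSeq (GRCm38.p6), neither of which is the build of the table. Replicate libraries of a group differed by more than sampling noise in all 288 pairs, with a chi-square per degree of freedom of at least 2.55.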

Additional observations from a re-analysis of the deposited data

Results flagged for a closer look

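Of 74 groups of 4 transcriptome libraries with a member detected, 6 held 1 library far from the other 3. About 1 in 20 independent groups would do so by chance. The members share libraries, so these groups are not independent, and their own rate was not measured. In morulae, Lats1 was 22.9 CPM in library D against 11.2 to 12.99 CPM in the others, and Lats2 was 12.4 CPM in library D against 15.9 to 16.4 CPM. Morula library A held Tead4 at 126.5 CPM against 81.9 to 86.2 CPM, and Vgll4 at 63.4 CPM against 30.5 to 34.7 CPM. Lats2 was 2.87 CPM in 2-cell library H, with 0.128 to 0.338 CPM in the other libraries. Amot was 3.94 CPM in zygote library B, with 1.87 to 1.94 CPM in the others.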

How the results depend on the processing

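Over all steps 17 member changes were called in the transcriptome. The count was 12 to 20 under the other settings and 16 to 19 with 1 library left out. For heavy changes beyond the transcriptome it was 12, and 9 to 14 under the other settings. With 1 transcriptome library or 1 gradient left out it was 9 to 18. Calls over all genes moved too. From the 2-cell to the 4-cell stage 4662 of 14642 genes were higher and 4823 lower in the transcriptome. With a pseudocount of 5 these were 3494 and 3431, and with edgeR 4814 and 5396. Beyond the transcriptome 2097 of 15165 were higher and 2726 lower, and 1804 and 2655 with a pseudocount of 5. On the heavy side 7 member changes were called, and 12 with DESeq2. With 1 gradient left out 6 to 11 were called, reaching 11 without 4-cell gradient A or C. From the 2-cell to the 4-cell stage 2262 of 14524 genes were called higher and 3233 lower, and 3560 and 4202 with DESeq2. Calls over all genes were not counted with 1 gradient left out. Between heavy and light fractions 1 was called. There the count was 3 with a pseudocount of 5, 2 with no filter, 2 with only the groups compared, 2 after quantile normalization, 4 with edgeR, 4 with fractions 7 to 10 as heavy, 4 with fractions 1 and 2 as light, 3 with fractions 2 to 5 as light and 2 without the library of 2-cell fraction 7, gradient B, the last pair of settings chosen after seeing the data. It was 1 to 3 with 1 gradient left out, namely 3 without 4-cell gradient A or C and 2 without 4-cell gradient B, 2-cell gradient C or 8-cell gradient A. With the gradient as a replicate block it was 3. Of all 15172 genes, 516 were called higher and 1952 lower on the heavy side in 4-cell embryos. These counts were 594 and 1610 with a pseudocount of 5, and 1046 and 1320 with edgeR. They were 531 and 2231 with fractions 7 to 10 as heavy, and 791 and 1595 with fractions 1 and 2 as light. Replicate letters did not pair samples between stages (correlations of deviations -0.18 to 0.17 in transcriptomes and -0.06 to 0.09 on the heavy side). A replicate block left 6 calls at 6 over transcriptome steps without the 2-cell stage, and 7 at 7 on the heavy side. The heavy change of Amotl2 beyond the transcriptome from the 2-cell to the 4-cell stage turned from -2.79 to 0.16 with edgeR, and the cause was not tested. Quantile normalization moved the median of all genes from zygote to 2-cell embryo from 0.37 to -0.08 in the transcriptome and from -0.51 to -0.01 on the heavy side, and the share of called genes that were higher from 74.3% to 46.4% and from 24.5% to 50.8%. In the transcriptome that share also moved from 26.4% to 55.6% from GV to MII oocytes, 17.4% to 49.8% from the 4-cell to the 8-cell stage, 68.9% to 52% into morulae and 70.2% to 50.8% into blastocysts. On the heavy side it moved from 20.5% to 37.1%, 85.6% to 49.9% and 67.9% to 56.7% at the first, the fifth and the sixth step, and from 41.2% to 51.7% from the 2-cell to the 4-cell stage. Depth was under 1 M reads in 14 fraction 1 libraries of the light side.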
